A study of Homo sapiens with 54 samples.

Results

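Cells make cholesterol and fatty acids under the control of the sterol regulatory element-binding proteins (SREBPs), transcription factors held in the membrane of the endoplasmic reticulum. When membrane sterol is low, the escort protein SCAP carries the SREBP precursor to the Golgi, where proteases release the part that enters the nucleus. When sterol is plentiful, INSIG proteins hold SCAP back. The protein encoded by SREBF2 acts mainly on sterol genes and that encoded by SREBF1 more on fatty acid genes, and INSIG1 is itself a target, so its transcript is widely used as a readout of the pathway.

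The 33 genes described here, of 33119 in the deposited tables, are textbook members of this programme. They were chosen by name, with earlier results of these data known. They comprise 7 genes of the mevalonate pathway from acetyl-CoA units to farnesyl diphosphate, 11 genes from squalene to cholesterol, 9 genes of fatty acid and glycerolipid synthesis, 4 regulators (SREBF1, SREBF2, SCAP and INSIG1) and a pair that handles sterol carriage and uptake (STARD4 and MYLIP). The first 2 groups are called the 18 sterol enzymes below.

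Transcripts were counted by 3′-end sequencing in 54 libraries of 6 established human cancer cell lines, grown in the same serum-containing medium. The lines were SW48 and SW620 from colorectal cancer, NCI-N87 and MKN-45 from stomach cancer, and BT-20 and BT-474 from breast cancer. Libraries fell into 18 groups of 3. Set 1 held SW48 and SW620, each as controls and with trametinib. Set 2 held all 6 lines: SW48 and SW620 as controls, with trametinib or with palbociclib, and the other lines as controls or with afatinib. Trametinib inhibits the kinase MEK, palbociclib inhibits the cell cycle kinases CDK4 and CDK6, and afatinib inhibits the receptors EGFR and HER2. The labels state no dose, no exposure time and no treatment of the controls. They also do not say whether a group's 3 libraries are separate cultures, and the p-values below then reflect only how far these libraries spread, which may be technical. In bulk RNA, a change in the mixture of cells and a change per cell cannot be told apart.

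Library totals were 4063382 to 10622670 reads assigned to genes in set 1 and 3401565 to 12806042 in set 2. The drugs' marker genes moved in part of the comparisons: of 9 genes downstream of MEK and ERK, 9 fell with trametinib in SW48 of set 2 and 6 in set 1, and none passed the test in SW620 of either set. With palbociclib in SW48, 7 of these 9 fell and 1 rose. Of 8 genes of the G1/S transition, 7 fell with palbociclib in SW48, 3 with palbociclib in SW620 and 8 with afatinib in BT-474. With trametinib in SW48, 6 of the 8 rose and 1 fell in set 1, and 1 rose and 3 fell in set 2. Of 6 intestinal markers, SW48 and SW620 of set 1 held 2 and 3 at 1 CPM (read counts scaled to the library's total) or more, and CDX1 was at 0 in each of their set 1 groups. The controls of these lines in set 2 also held 2 and 3, with CDX1 at 0, so this was not particular to set 1. In set 1 the SW620 libraries labelled control stood apart from one another: PGR, a receptor of luminal breast cells, was at 111, 0.206 and 195 CPM, and GRB7 at 575, 500.4 and 2273 CPM. PGR was also at 51.45 CPM in control library 2 of SW48 in set 1, against 0.173 and 0 in the others. Set 1 also differed from set 2 as a whole: ERBB2 was at 989.6 ± 48.57 CPM in the SW48 controls of set 1 and 99.5 ± 6.38 in those of set 2, and the intestinal factor CDX2 at 2.782 ± 0.8196 and 33.7 ± 1.54 CPM in the SW620 controls. The 2 tables were scaled apart, whether their libraries hold the same cells was not tested, and set 1 groups are named below as labelled.

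In SW48 cells of set 2, trametinib raised the sterol branch almost as a whole. Of the 18 sterol enzymes 15 rose and none fell, and their median log2 fold change was 0.80, against 0.008 over all genes tested. Over all 33 members 22 rose and 2 fell, a share to be read against the 30.1% of all tested genes that rose and the 30.1% that fell (edgeR quasi-likelihood test, Benjamini-Hochberg adjusted p under 0.05). Of 9 fatty acid members 4 rose and 1 fell, with a median of 0.19. The members that fell were SREBF1 and SCD.

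Among the regulators, INSIG1, the retention protein, stood at 23.96, 24.97 and 26.99 CPM in the SW48 controls of set 2 and at 85.1, 83.7 and 79.4 CPM with trametinib. Every treated library lay far above every control, a log2 fold change of 1.69 (SE 0.0734, adjusted p 1.1e-09 by edgeR). SREBF2 rose from 38.1 ± 2.39 to 65.6 ± 4.49 CPM (mean ± SD, n = 3 here and throughout), a log2 change of 0.76 (edgeR, adjusted p 2.5e-06). SREBF1 went the other way: its controls were at 83.1, 87.4 and 76.5 CPM and the trametinib libraries at 51.3, 45.3 and 49.8 CPM, with no overlap, a log2 change of −0.77 (edgeR, adjusted p 2.2e-06). The counts of the 2 SREBP genes thus changed in opposite directions in the same libraries. Exons of RAI1, on the opposite strand, cover 100% of the last 500 exonic bases of SREBF1. Whether counting used the strand is not stated, so reads of RAI1 may be mixed into its count. SCAP, the escort, had a log2 change of 0.06 and did not pass the test (edgeR, adjusted p 0.42).

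In the mevalonate pathway 6 of 7 genes rose with trametinib in SW48 of set 2. FDPS, farnesyl diphosphate synthase, at 1.01, lost its call without trametinib 1 (0.65, edgeR adjusted p 0.081) or control 2 (0.68, adjusted p 0.054), with robust dispersion (adjusted p 0.16) and by DESeq2 (adjusted p 0.11). MVK, mevalonate kinase, rose by 1.61 on the log2 scale (SE 0.122) and MVD, the decarboxylase, by 1.34 (SE 0.167). HMGCS1, the synthase that makes HMG-CoA, was at 31.7, 23.6 and 27.8 CPM in the controls and at 74.7, 74.0 and 75.0 CPM with the drug, a log2 change of 1.41 (SE 0.0913). ACAT2, which joins acetyl-CoA units at the head of the pathway, rose by 1.27, at a control level of only 1.75 ± 0.469 CPM. From squalene onward 9 of 11 genes rose. HSD17B7, a sterol ketoreductase, rose by 1.60 from 0.962 ± 0.0426 CPM, EBP, the sterol isomerase, by 1.14, and FDFT1, squalene synthase, by 1.06. SQLE, the epoxidase that oxidises squalene, was at 39.1, 34.8 and 38.4 CPM in the controls and at 67.1, 68.8 and 64.8 CPM with trametinib, again without overlap (log2 change 0.82). STARD4, a carrier of cholesterol between membranes, rose by 1.09.

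The fatty acid members did not move as a block. FADS1, the delta-5 desaturase, rose by 1.31 and ACSS2, which activates acetate, by 0.95, both from low levels (1.575 ± 0.570 and 6.255 ± 1.004 CPM). FASN, fatty acid synthase, rose by 0.27, from 179, 216 and 194 CPM to 228, 239.9 and 254 CPM, where the lowest treated library lay only just above the highest control. SCD, the stearoyl-CoA desaturase, fell by 0.36, from 439, 394 and 423 CPM to 336, 333 and 323 CPM. With all groups of the set in one edgeR fit, which shares one estimate of the spread, SCD (adjusted p 0.089) and ACSS2 (adjusted p 0.16) were no longer called.

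**Figure D1:**
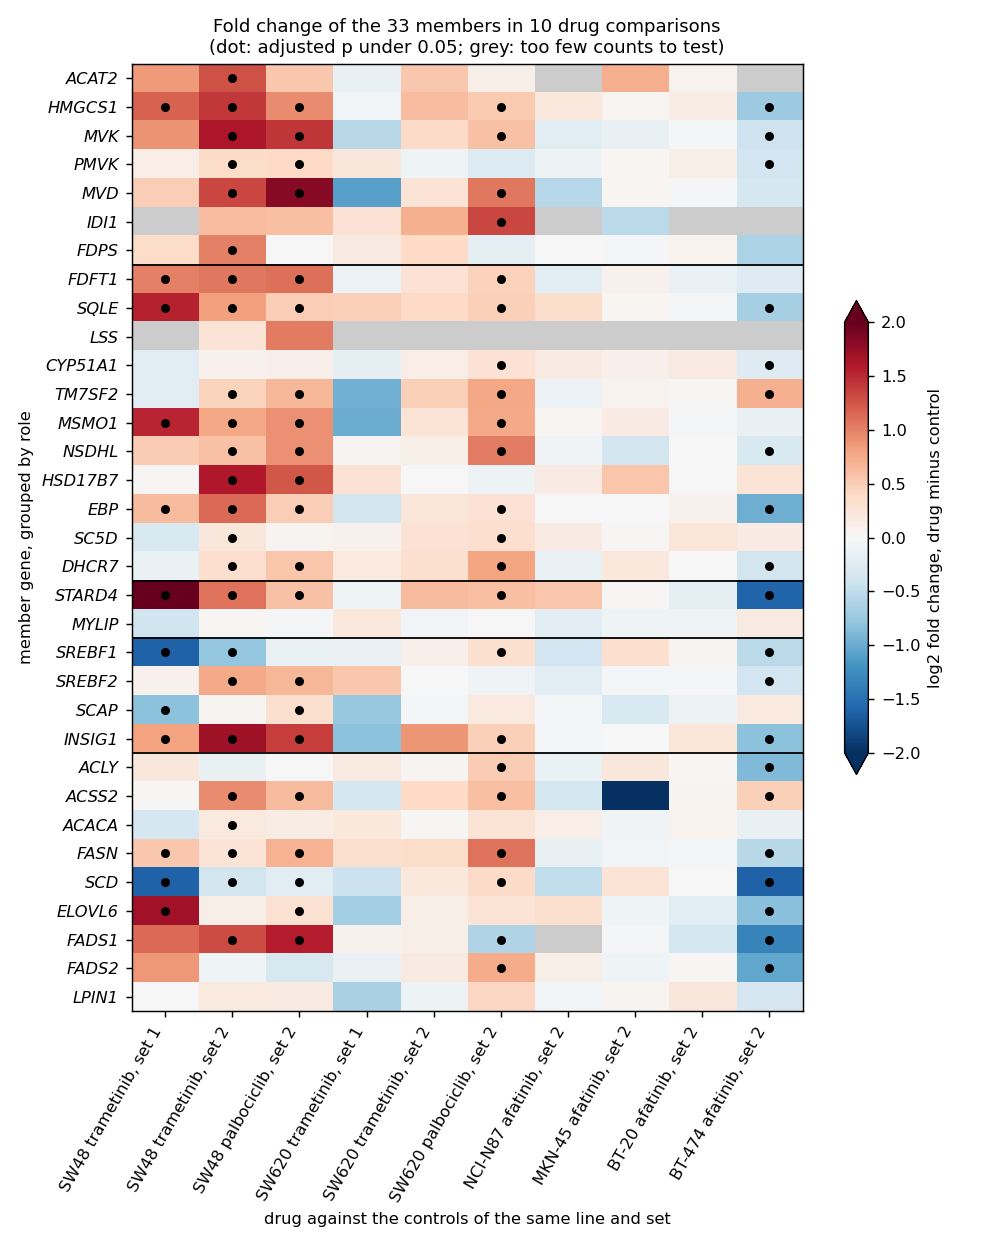
Log2 fold change (colour, limited to −2 and 2) of the 33 members (rows, grouped by role) in the 10 drug comparisons (columns), with a dot where the adjusted p was under 0.05 and grey where a gene had too few counts to test. Red fills the sterol rows of SW48 in set 2 and of SW620 with palbociclib, blue with dots fills most rows of BT-474, and the columns of NCI-N87, MKN-45 and BT-20 hold no dot.

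Set 1 held other libraries labelled with the same line and drug. There 9 of 31 members rose and 3 fell with trametinib in SW48, against 16% and 19.4% of all genes. Of the 12 members called in set 1, 10 were called in the same direction in set 2, which is 83.3% of the first list and 41.7% of the 24 called in set 2. Over all genes, 4331 of 12235 were called in set 1 and 7628 of 12688 in set 2. The share of all genes called in the same direction in both sets was not computed, so the overlap of the members cannot be set against it. INSIG1 was at 66.9, 49.6 and 43.1 CPM in the controls and at 102, 87.1 and 86.9 CPM with trametinib, a log2 change of 0.80 (SE 0.171). The groups did not overlap. STARD4 rose by 2.29, SQLE by 1.54, MSMO1, a sterol demethylating oxidase, by 1.53 and HMGCS1 by 1.19.

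SCD and SREBF1 fell in set 1 too. SCD was at 285, 252 and 275 CPM in the controls and at 89.9, 80.7 and 92.5 CPM with the drug, a log2 change of −1.61 (SE 0.0953, edgeR adjusted p 1.6e-05). SREBF1 fell by 1.62 on the log2 scale, from 78.4 ± 5.62 to 25.5 ± 7.94 CPM. ELOVL6, the elongase of 16-carbon acids, rose by 1.69, whereas in set 2 its log2 change was 0.12 and did not pass the test. SCAP fell by 0.81, and SREBF2 was at a log2 change of 0.09 (edgeR, adjusted p 0.67). Tests were made within each table, so differences between the sets were not tested. With all groups of set 1 in one edgeR fit, 6 members rose and 2 fell, and INSIG1 (adjusted p 0.43), SCAP (0.2), FASN (0.19) and MSMO1 (0.05) were no longer called; that fit takes in the SW620 controls described above. Without control library 2, the one with PGR, 10 members rose and 3 fell.

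Palbociclib, given to SW48 in set 2 beside the same controls, gave 20 members higher and 1 lower of 33, against 28.3% and 29.2% of all genes. Among sterol enzymes 12 of 18 rose and none fell (median 0.63). MVD rose by 1.82, MVK by 1.43, FDFT1 by 1.11 and HMGCS1 by 0.95. INSIG1 was at 69.7, 67.4 and 63.0 CPM, all above the controls (log2 change 1.39, SE 0.0811). SREBF2 rose by 0.66 and SCAP by 0.32, and SREBF1 had a log2 change of −0.13 that did not pass the test (edgeR, adjusted p 0.15). FADS1 rose by 1.57 and FASN by 0.69, to 319, 313 and 328 CPM. HSD17B7, at 1.24, lost its call when any one of 4 libraries was left out: palbociclib 2 (adjusted p 0.15, edgeR) or any control (adjusted p up to 0.07). With all groups in one edgeR fit, SCD, which fell by 0.21, was no longer called (adjusted p 0.34), nor were ACSS2 (0.39) and STARD4 (0.055).

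The drugs were also compared with each other directly, with no control library in the test. In SW48, 7 of 33 members were higher with trametinib than with palbociclib and 7 lower, against 21% and 20.9% of all genes. The members thus differed about as often as all genes did, and neither drug gave uniformly higher levels. EBP was higher with trametinib by 0.64 (log2 scale), FDPS by 1.02 and ACAT2 by 0.73. FDPS, at 43.15, 29.77 and 16.96 CPM in the trametinib libraries, lost its call with robust dispersion (edgeR, adjusted p 0.079). SREBF1 was lower with trametinib by −0.64, MVD by −0.48 and FASN by −0.42. ACAT2 lost its call without any single trametinib 1 or 2 or palbociclib library (adjusted p up to 0.13, edgeR), and MVD without trametinib 2 or palbociclib 1 or 3 (adjusted p up to 0.086, edgeR). With all groups in one fit 3 members were higher and 4 lower.

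**Figure D2:**
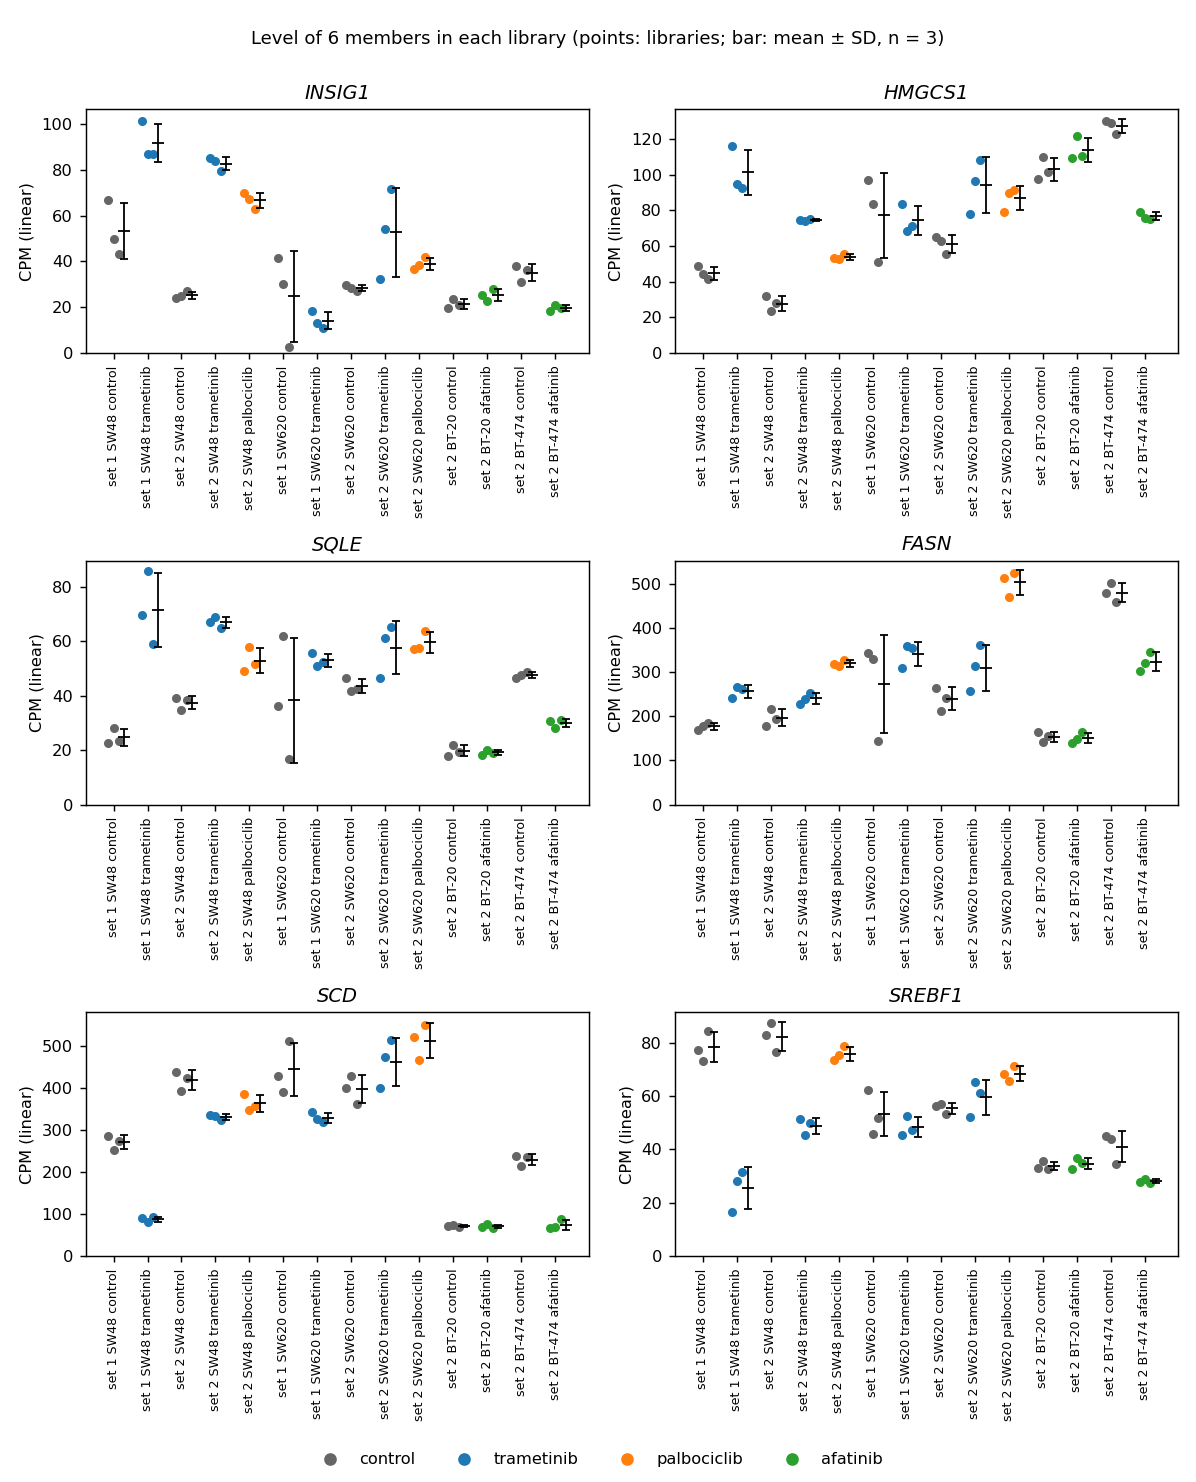
Level in CPM (linear axis) of INSIG1, HMGCS1, SQLE, FASN, SCD and SREBF1 in each library of SW48, SW620, BT-20 and BT-474, coloured by drug, with the mean and SD of 3 libraries. INSIG1 of SW48 separates treated from control libraries in both sets, and SCD falls from 271 to 87.7 CPM in set 1 of SW48 and from 229 to 74.2 CPM in BT-474.

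Members with a measured response can be set beside their promoters. RefSeq promoter entries were matched by symbol for 29 of the 33 members; ACAT2, FDFT1, SQLE and FASN had none. In the 250 bases before the start, on both strands, the sterol response element TCACNCCAC was found in 1 member gene (3.4%), against 1.1% of 27305 genes. The NF-Y box CCAAT, bound by a factor known to act together with SREBPs, was found in 21 members (72.4%), against 37.0% of all genes and 40.5% of protein-coding genes. The Sp1 box GGGCGG was in 28 members (96.6%), against 46.2% of all genes and 63.2% of protein-coding genes. The E-box CACGTG was in 3 (10.3%), against 7.7% and 9.8%, close to the protein-coding share. Each motif was counted on its own, so matches of different motifs can overlap, and a match describes the letters only.

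The following stretches are examples picked by name: SREBF2, the sole member with the TCACNCCAC motif, MSMO1, NSDHL (a sterol dehydrogenase) and STARD4, which rose with trametinib in SW48 of set 2, and SCD, which fell. Members with larger changes there, such as MVK and HMGCS1, also held an NF-Y box and are not shown. Capitals mark the sterol response element and the NF-Y boxes, which read ATTGG on the other strand; each line is 5′ to 3′ on the gene's strand, lies upstream of the gene as annotated, and comes from RefSeq on GRCh38.p14. The lines are chr22:41832960-41833015 (plus strand), chr4:165327472-165327546 (plus), chrX:152830913-152830966 (plus), chr5:111512649-111512708 (minus) and chr10:100346992-100347063 (plus).
SREBF2: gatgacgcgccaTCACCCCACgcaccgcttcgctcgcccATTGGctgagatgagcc
MSMO1: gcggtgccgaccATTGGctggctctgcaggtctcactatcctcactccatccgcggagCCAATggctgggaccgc
NSDHL: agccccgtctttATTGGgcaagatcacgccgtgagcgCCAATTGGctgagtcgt
STARD4: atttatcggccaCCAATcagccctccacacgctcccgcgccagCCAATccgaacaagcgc
SCD: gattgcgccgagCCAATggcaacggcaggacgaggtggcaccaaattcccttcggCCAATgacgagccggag

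In SREBF2 the sterol element and the NF-Y box stood in the same stretch, and in NSDHL 2 boxes on opposite strands overlapped as CCAATTGG. With trametinib in SW48 of set 2, 16 of the 21 members with an NF-Y box rose and 1 fell (SCD), with a median log2 change of 0.76, while 2 of the 8 without one rose and 1 fell (SREBF1), with a median of 0.10. With palbociclib in SW48, 13 of 21 with a box and 4 of 8 without one rose, and in SW620 15 of 20 and 3 of 8. Over all genes, 30.1%, 28.3% and 17.6% rose in these comparisons in that order. With afatinib in BT-474 the medians were −0.36 with a box and −0.46 without. SCD held the same box as MSMO1 and STARD4 and moved the other way in SW48, so the letters alone did not sort the members by direction.

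In SW620, palbociclib raised both branches. Of 32 members 21 rose and 1 fell, against 17.6% and 17.4% of all genes, with a median of 0.44 against 0.002 over all genes. Of 17 sterol enzymes tested 13 rose, and of 9 fatty acid members 5 rose and 1 fell, with medians of 0.47 and 0.41. FASN rose most clearly among the fatty acid members, from 265, 213 and 241 CPM in the controls to 514, 470.2 and 526 CPM, a log2 change of 1.09 (SE 0.0931, edgeR adjusted p 1.7e-05). The lowest treated library was well above the highest control. SCD, which fell in SW48, rose here by 0.39, from 400.1, 429 and 363 CPM to 522, 466 and 549.6 CPM. ACLY, which makes cytosolic acetyl-CoA from citrate, rose by 0.51 and ACSS2 by 0.60. With all groups in one edgeR fit SCD (adjusted p 0.079), ACSS2 (0.4), SREBF1 (0.072), STARD4 (0.072) and EBP (0.061) were no longer called. EBP also lost its call with the replicate block (adjusted p 0.057) and without control 1 or 3 or palbociclib 1 or 3 (adjusted p up to 0.11).

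The desaturases FADS1 and FADS2 lie side by side on chromosome 11 and catalyse successive steps of polyunsaturated fatty acid synthesis, yet moved apart in SW620 with palbociclib. FADS1 was at 213, 284 and 234 CPM in the controls and at 152, 154 and 171 CPM with the drug, a log2 change of −0.60 (SE 0.106, edgeR adjusted p 0.0015). FADS2, the delta-6 desaturase, was at 11.42, 9.432 and 13.07 CPM in the controls and at 18.3, 19.5 and 18.7 CPM with the drug, a log2 change of 0.75 (SE 0.146, edgeR adjusted p 0.0026). Neither gene's groups overlapped.

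Among sterol genes of SW620, palbociclib raised MVD by 1.06, NSDHL by 1.02, DHCR7, the last reductase of the pathway, by 0.79, TM7SF2, a sterol reductase, by 0.78 and MSMO1 by 0.76. IDI1, the isomerase of isopentenyl diphosphate, rose by 1.33 from 1.18 ± 0.585 CPM and lost its call without any one of control 1 or 2 or palbociclib 1, 2 or 3 (edgeR, adjusted p up to 0.11). HMGCS1 rose by 0.53, from 65.2, 62.6 and 55.7 to 79.2, 89.6 and 91.5 CPM. INSIG1 rose by 0.48 (SE 0.101), from 29.6, 28.4 and 27.2 to 36.7, 38.5 and 41.8 CPM, and SREBF1 by 0.32. SREBF2 was at a log2 change of −0.08 and SCAP at 0.20, neither past the test (edgeR, adjusted p 0.58 and 0.17).

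With trametinib in SW620 of set 2 no member passed the test, as was true of all 12919 genes tested (0% higher and 0% lower by edgeR). At an unadjusted p under 0.05 there were 9 members, each with a higher mean under trametinib, among 2204 genes. DESeq2 called 208 genes and 2 members, both higher, and edgeR with all groups of the set in one fit called 632 genes and 5 members, all higher, INSIG1 among them (0.89, adjusted p 0.00073). The 3 trametinib libraries differed from one another. INSIG1 was at 32.45, 54.25 and 71.5 CPM with trametinib, against 27.2 to 29.6 CPM in the controls, so the first library lay near the controls and the third far above them. HMGCS1 was at 77.7, 96.4 and 108 CPM, against 55.7 to 65.2 CPM. The other regulators had log2 changes of 0.10 (SREBF1), 0.003 (SREBF2) and −0.03 (SCAP).

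Without trametinib library 1, edgeR called 882 genes and 8 members, all higher: INSIG1 (1.16, adjusted p 0.0061), STARD4 (0.83), HMGCS1 (0.76), TM7SF2 (0.60), MVK (0.56), SQLE (0.55), DHCR7 (0.43) and FDFT1 (0.42). Each library was left out in turn, and this fit is singled out after its values were seen, with 2 trametinib libraries. Leaving out any other single library gave 0 calls among the members. FASN (0.50) and SCD (0.32) did not pass the test in that fit.

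**Figure D3:**
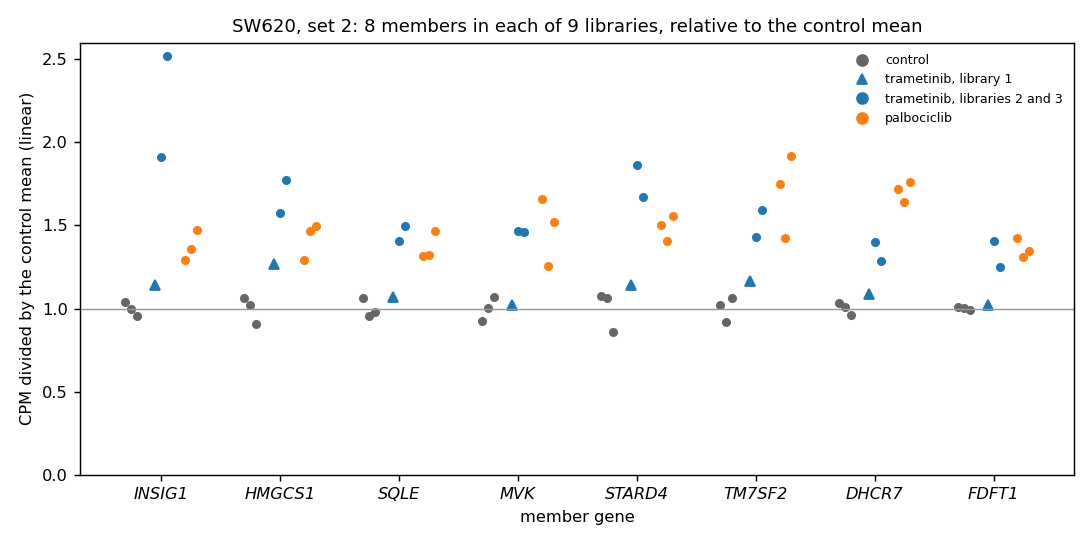
Level of 8 members in the 9 SW620 libraries of set 2, each divided by the mean of the 3 controls (linear axis); the genes are those called when trametinib library 1, drawn as a triangle, was left out. The triangle is the lowest trametinib point for all 8 genes, a position that choosing them by the fit without that library favours. For INSIG1 the trametinib libraries span 32.5 to 71.5 CPM while palbociclib libraries span 36.7 to 41.8 CPM.

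In set 1 trametinib also left SW620 with no call among 32 members and none among 13081 genes (0% higher and 0% lower by edgeR; 366 genes and 1 member at an unadjusted p under 0.05; DESeq2 called 14 genes and no member). The controls varied more than the treated libraries: the median coefficient of variation of members at 10 CPM or more was 42.1% in the controls and 11.5% with trametinib. INSIG1 was at 41.5, 30.3 and 2.84 CPM in the controls and FASN at 344, 329 and 145 CPM, so control library 3 was lowest for both. Library 3 was highest for TM7SF2 (30.3, 41.2 and 139 CPM) and SCAP (54.1, 47.6 and 182 CPM). It is also the library with GRB7 at 2273 CPM, whose part in these values was not tested. Without it there was still no member called. The regulators' log2 changes over all libraries were −0.82 for INSIG1 (SE 0.798), −0.14 for SREBF1, 0.53 for SREBF2 and −0.75 for SCAP, and that of SCAP was 0.15 without control library 3.

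The change with trametinib differed between SW620 and SW48 of set 2 for 12 of 33 members by a direct test of the difference, 2 higher in SW620 and 10 lower, against 15.3% and 12.9% of all genes. Of the 18 sterol enzymes 7 were lower and none higher. MVK differed by −1.20 (log2 scale, SW620 minus SW48), HSD17B7 by −1.58 and FADS1 by −1.18. SREBF1 differed by 0.89 and SCD by 0.59, the pair that fell in SW48; the call of SCD was lost with all groups in one edgeR fit (0.56, adjusted p 0.073). For palbociclib 13 members differed, 5 higher in SW620 and 8 lower, against 14.6% and 11.2% of all genes. FADS1 differed by −2.15, INSIG1 by −0.90 and MVK by −0.83, while FADS2 (1.08), SCD (0.61) and ACLY (0.53) were higher in SW620. Fatty acid members made up 4 of the 5 on the higher side and sterol enzymes 5 of the 8 on the lower side. With all groups of the set in one fit, 8 members differed for palbociclib, 1 higher and 7 lower.

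Within SW620, 2 members were higher with trametinib than with palbociclib and 7 lower, against 15.9% and 16.7% of all genes. NSDHL was lower by −0.89, MVD by −0.76 and FASN by −0.70. FADS1 was higher by 0.73 and FDPS by 0.58, and the call of FDPS was lost without palbociclib 1 or 2 or trametinib 3 (edgeR, adjusted p up to 0.076). INSIG1 differed by 0.43 with SE 0.23, not past the test (edgeR, adjusted p 0.18).

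In BT-474 cells most members fell with afatinib. Of 30 members tested 18 fell and 2 rose, against 21.8% and 20.9% of all genes, with a median of −0.38 against 0.014. Fatty acid members fell furthest: their median was −0.84, and 6 of 9 fell while 1 rose. The 15 sterol enzymes tested had a median of −0.36, and 8 fell while 1 rose. SCD was at 238, 214 and 237 CPM in the controls and at 65.7, 68.8 and 88.2 CPM with afatinib, a log2 change of −1.62 (SE 0.097, edgeR adjusted p 1e-07). The groups were far apart.

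FADS1 fell from 121, 109 and 133 CPM to 49.51, 49.97 and 43.34 CPM (log2 change −1.34, SE 0.0912), and FADS2 from 116, 108 and 119 CPM to 47.5, 51.4 and 66.5 CPM (−1.04, SE 0.105). Here the neighbouring desaturases moved together. ACLY fell by 0.88, ELOVL6 by 0.84 and FASN by 0.56, from 479, 501 and 459 CPM to 303, 321 and 345 CPM. Every treated FASN library lay below every control.

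Among sterol genes of BT-474, EBP fell by 0.97 on the log2 scale, HMGCS1 by 0.72 and SQLE by 0.66. HMGCS1 was at 130.1, 129 and 123 CPM in the controls and at 79.3, 75.7 and 74.9 CPM with afatinib, and SQLE at 46.5, 47.5 and 48.6 against 30.8, 28.2 and 30.9 CPM. Neither gene's groups overlapped. STARD4 had a log2 change of −1.60, from 2.98 ± 0.931 to 0.956 ± 0.680 CPM; it lost its call without control 1 or 3 or afatinib 1 (edgeR, adjusted p up to 0.099). Of the regulators, INSIG1 fell by 0.83 (from 38.1, 31.1 and 36.2 to 18.4, 20.9 and 19.7 CPM), SREBF1 by 0.54 and SREBF2 by 0.38. SCAP had a log2 change of 0.19 (edgeR, adjusted p 0.095).

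TM7SF2 and ACSS2 rose in BT-474 while the rest of the called members fell. TM7SF2 was at 121, 113 and 124 CPM in the controls and at 195, 189 and 202 CPM with afatinib, a log2 change of 0.71 (SE 0.0625, edgeR adjusted p 2.7e-06). ACSS2 was at 28.4, 28.0 and 24.2 CPM against 38.0, 35.8 and 37.1 CPM, a log2 change of 0.47. Both genes were higher in every treated library. With all groups of the set in one edgeR fit, ACSS2 was no longer called (adjusted p 0.51), nor were MVK (0.093), CYP51A1 (0.066) and NSDHL (0.12).

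**Figure D4:**
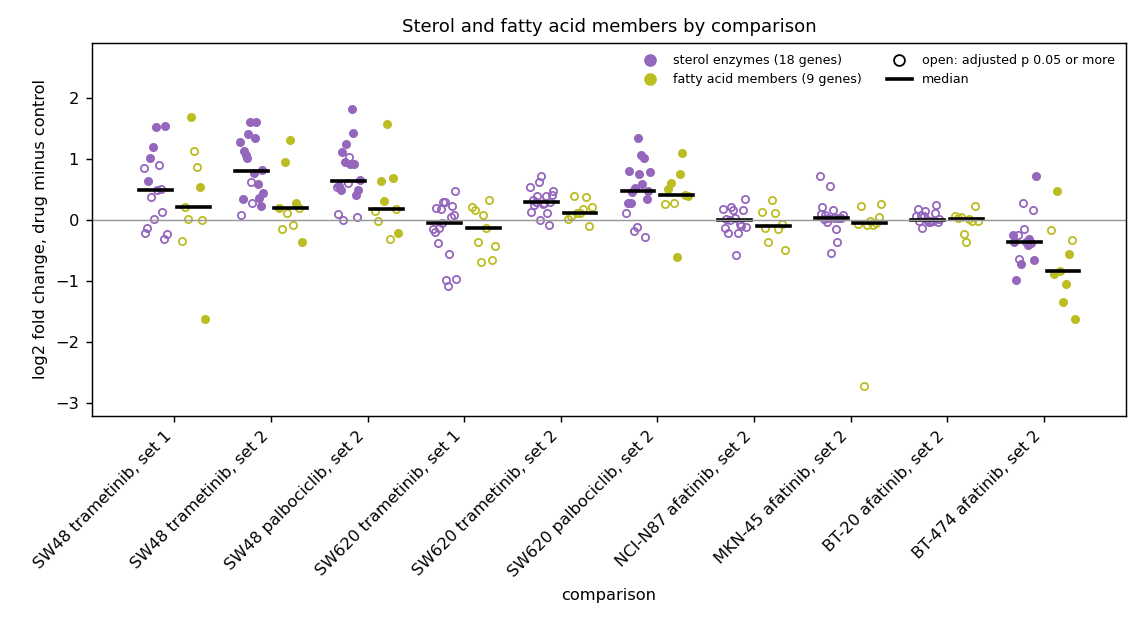
Log2 fold change of each sterol enzyme (purple) and each fatty acid member (olive) in the 10 drug comparisons, filled where the adjusted p was under 0.05, with the median as a bar. The sterol median is 0.80 and the fatty acid median 0.19 with trametinib in SW48 of set 2, and −0.36 and −0.84 with afatinib in BT-474.

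Of the 20 members called in BT-474, 16 were also called with trametinib in SW48 of set 2. Of these, 12 went in the opposite direction, which is 60% of the BT-474 list and 50% of the SW48 list. HMGCS1, SQLE, EBP, INSIG1 and FASN were among the 12. SCD and SREBF1 fell in both, and TM7SF2 and ACSS2 rose in both. Over all genes, 5457 of 12768 were called in BT-474 and 7628 of 12688 in SW48. The share of all genes called in opposite directions was not computed. Genes of the G1/S transition fell with afatinib in BT-474 (8 of 8, median −2.48) and with palbociclib in SW48 (7 of 8, median −0.55); the part of the cell cycle in the members' changes was not tested.

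In BT-20, the other breast line, no member passed the test (31 tested; 0.273% of all genes rose and 0.312% fell by edgeR). At an unadjusted p under 0.05 there were 2 members, SC5D, a sterol desaturase, at 0.25 and LPIN1, a phosphatidate phosphatase, at 0.23, and DESeq2 called 163 genes and no member. INSIG1 was at 19.8, 23.7 and 20.8 CPM in the controls and at 25.2, 22.7 and 27.9 CPM with afatinib, groups that overlapped. SREBF1 had a log2 change of 0.05, SREBF2 of −0.03 and SCAP of −0.10. SCD was at 71.5 ± 2.88 CPM in the controls and 70.7 ± 4.13 CPM with afatinib. The difference between the breast lines, tested directly, was called for 14 of 31 members, 13 lower in BT-474 and 1 higher, against 13.6% and 10.2% of all genes. SCD differed by −1.62 (BT-474 minus BT-20), INSIG1 by −1.09 and EBP by −1.07, while TM7SF2 differed by 0.68.

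No member passed the test in either stomach line. In NCI-N87, 29 members were tested and edgeR called 0% of genes in either direction; 1 member, MVD, reached an unadjusted p under 0.05, at −0.58, among 1523 genes, and DESeq2 called 37 genes and no member. SQLE was at 60.32, 36.75 and 32.99 CPM in the controls and at 51.2, 62.1 and 50.1 CPM with afatinib. Control library 1 was the high one for SQLE and for HMGCS1 (79.1, 48.1 and 52.5 CPM), and without it SQLE (0.65) and HMGCS1 (0.45) were called higher by edgeR, among 2108 genes. The fit with all libraries tested 12472 genes, so calls among the members were not frequent beside those of all genes. No other member was called without control 1, and uncalled members went both ways, such as MVD (−0.67) and CYP51A1 (0.38). Each library was left out in turn, and this fit is singled out after its values were seen. SCD was at 402, 379.9 and 163 CPM with afatinib against 401, 439.8 and 491 CPM in the controls, so library 3 alone was low. SREBF1 was at a log2 change of −0.38, SREBF2 at −0.22, SCAP at −0.04 and INSIG1 at −0.02.

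In MKN-45, 32 members were tested, 0% of genes were called in either direction by edgeR and by DESeq2 also none, and 4 members among 664 genes had an unadjusted p under 0.05. ACSS2 had the largest log2 change of these, −2.72, with SE 1.05. It was at 96.1, 3.19 and 6.80 CPM in the controls and at 6.29, 4.14 and 5.63 CPM with afatinib, so 1 control library set that value. INSIG1 was at 26.3, 21.2 and 25.6 against 23.6, 25.9 and 24.1 CPM. The remaining 3 were NSDHL (−0.36), SCAP (−0.30) and SCD (0.27). SREBF1 was at 0.34 and SREBF2 at −0.03. Tested directly, the difference between NCI-N87 and MKN-45 was called for none of 32 members, with 0.00725% of genes called in each direction, 2 members at an unadjusted p under 0.05 and none by DESeq2. The INSIG1 difference was −0.02 with an SE of 0.201.

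Untreated levels of the members differed widely between the lines of set 2: 31 of 32 members tested differed among the 6 lines, as did 97.1% of all genes (edgeR, F test). Each line gave 1 group of controls, so a line and the culture or preparation of its libraries cannot be told apart, and levels are compared here between lines for 1 gene at a time. FADS1 varied most visibly. It stood at 244 ± 36.3 CPM in SW620, 121 ± 11.9 in BT-474, 47.5 ± 7.17 in MKN-45, 9.38 ± 0.276 in BT-20, 1.575 ± 0.570 in SW48 and 0.442 ± 0.479 in NCI-N87, where the 3 libraries held 2, 0 and 7 reads. No neighbours in that order overlapped. Its neighbour FADS2 was at 114 ± 5.55 CPM in BT-474 and 11.3 ± 1.82 in SW620, and its next 4 lines, from MKN-45 at 7.12 ± 1.69 to BT-20 at 1.51 ± 1.54, overlapped one after another.

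TM7SF2 was at 119.7 ± 5.66 CPM in BT-474, 7.46 times its level in MKN-45 (16.1 ± 4.39), with no overlap between any neighbours in the order. SCD was highest in NCI-N87 (444 ± 45.2), SW48 (419 ± 23.3) and SW620 (397 ± 32.98), which overlapped, and lowest in BT-20 (71.5 ± 2.88). FASN was at 479.8 ± 21.1 CPM in BT-474 and 154 ± 11.6 in BT-20, a ratio of 3.12. SREBF2 ran from 78.4 ± 10.8 in NCI-N87 to 23.1 ± 1.83 in MKN-45, and SREBF1 from 82.4 ± 5.50 in SW48 to 31.0 ± 7.98 in MKN-45. INSIG1 varied little, from 35.1 ± 3.66 in BT-474 to 21.4 ± 2.02 in BT-20, a ratio of 1.64. IDI1, at 1.05 to 1.67 CPM, was the member that did not pass, and LSS, lanosterol synthase, at 0.104 to 0.868 CPM, had too few counts to test.

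**Figure D5:**
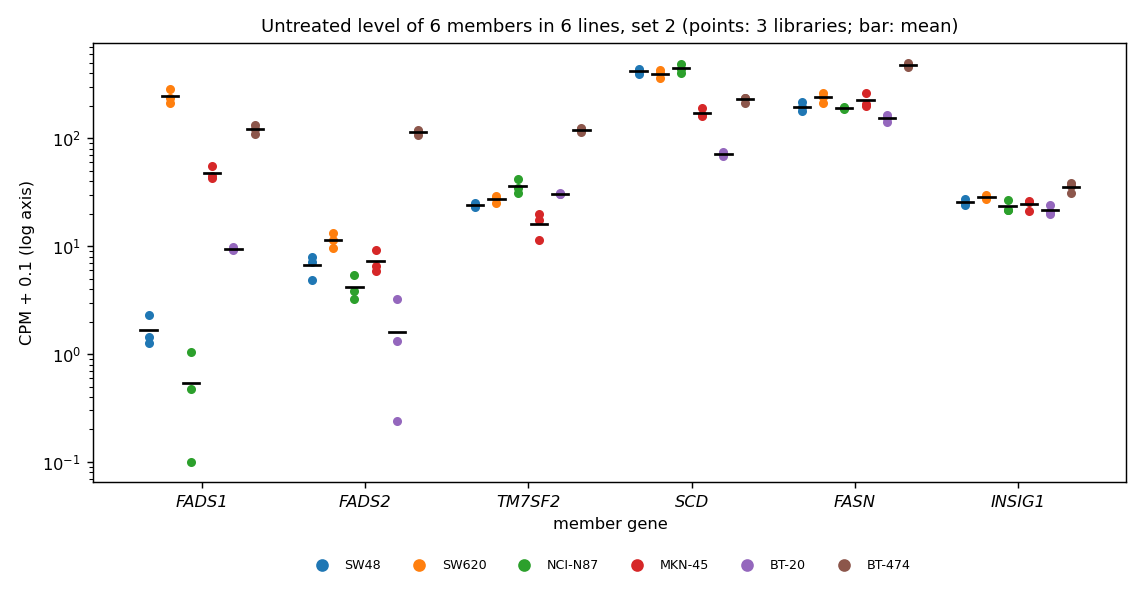
Untreated level (CPM + 0.1, log axis) of 6 members in the 3 control libraries of each line of set 2, with the mean as a bar. FADS1 spans 244 CPM in SW620 to 0.442 CPM in NCI-N87, whereas INSIG1 stays between 21.4 and 35.1 CPM.

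Genes around the programme were read from 4 lists. TMEM97, a sterol-responsive membrane protein, rose in SW48 by 1.28 with trametinib in set 1, by 0.28 with trametinib in set 2 and by 0.43 with palbociclib, and fell by 0.67 in BT-474. The list of 11 other sterol and isoprenoid genes was mixed: 5 rose and 3 fell with trametinib in SW48 of set 2, and none rose and 4 fell in BT-474. With 10 and 9 of them tested, these counts stand beside 30.1% of all genes in each direction in SW48, and 20.9% higher and 21.8% lower in BT-474. FNTA, a protein prenylation subunit, and GGPS1, which makes geranylgeranyl diphosphate, were among those that fell in SW48 of set 2 (−0.50 and −0.38).

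Of 10 genes that process SREBPs or sense sterols, 1 rose and 5 fell with trametinib in SW48 of set 2, against 30.1% of all genes each way. MBTPS2, the second of the proteases that release SREBPs, fell by 1.02 and ERLIN1, an endoplasmic reticulum protein tied to sterol sensing, by 0.55. ERLIN1 also fell with palbociclib in SW48 (−0.71) and SW620 (−0.49). Of 12 genes of sterol export, storage and lysosomal release, 4 rose and 3 fell with trametinib in SW48 of set 2, and 6 rose and 2 fell with palbociclib; 11 were tested, against 30.1% of all genes each way with trametinib, and 28.3% higher and 29.2% lower with palbociclib. NPC2, which moves cholesterol out of lysosomes, rose by 1.97 and 1.75, and LIPA, the lysosomal lipase, by 1.26 and 1.38. NPC1, its partner in the membrane, fell by 0.64 and 0.41. ABCA1, the cholesterol exporter, rose by 1.55 in BT-474 with afatinib.

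Of 18 other fatty acid and glycerolipid genes, 16 were tested and 7 rose and 6 fell with trametinib in SW48 of set 2, beside the 30.1% of all genes each way. SLC25A1, the mitochondrial citrate carrier, rose by 0.62, and by 1.14 and 0.89 with palbociclib in SW48 and SW620. MID1IP1, which helps acetyl-CoA carboxylase polymerise, fell by 1.74 with trametinib and 1.23 with palbociclib in SW48. In BT-474, 17 of these genes were tested, and 1 rose and 3 fell, beside 20.9% of all genes higher and 21.8% lower. ACSL3, an acyl-CoA synthetase, was at −1.13 there.

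Across the 10 drug comparisons, 7 members were called 5 times each: HMGCS1, SQLE, EBP, STARD4, INSIG1, FASN and SCD. The first 6 rose in 4 comparisons and fell in 1, and SCD rose in 1 and fell in 4. Not all of these calls held with all groups of a set in one edgeR fit. SCD lost its calls with both drugs in SW48 of set 2 and with palbociclib in SW620. STARD4 lost both palbociclib calls, EBP lost that in SW620, and INSIG1 and FASN lost theirs in SW48 of set 1. The BT-474 call of STARD4 also depended on single libraries, as given above. LSS, MYLIP, a ligase that targets lipoprotein receptors, and LPIN1 were called in none, LSS being testable in 2. FDFT1, MSMO1, TM7SF2 and ACSS2 rose in 4 comparisons and fell in none, but in the same one-fit setting ACSS2 lost all of these calls and MSMO1 that of set 1. Calls of members came only from SW48, SW620 with palbociclib and BT-474. No gene was called by edgeR with trametinib in SW620 or with afatinib in NCI-N87 and MKN-45. In BT-20 75 genes were called but no member. Trametinib and palbociclib in SW48 of set 2 shared controls. The share of all genes called as often was not computed.

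Some values carry a limit of the counting. On hg38, as drawn by GENCODE release 29, INSIG1 spans chromosome 7, 155297776 to 155310235, SREBF1 chromosome 17, 17810399 to 17837002, FADS1 chromosome 11, 61799625 to 61829318 on the minus strand and FADS2 61792980 to 61867354 on the plus strand. FADS1 and FADS2 share 490 exonic bases, 4.8% of those of FADS1. Exons of other genes cover 79.4% of the last 500 exonic bases of ACAT2, 66.2% of those of HMGCS1, 76.8% of FDPS, 98.4% of CYP51A1 and 100% of SREBF1. Whether counting used the strand is not stated, so reads of these genes and their neighbours may be mixed or lost. FDPS has 8 annotated pseudogenes, CYP51A1 has 3, HSD17B7 has 2 and SCD and FADS2 have 1 each, and their levels are uncertain for that reason too.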

How the data were processed

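RNA 3′ ends were sequenced (QuantSeq libraries) and the authors deposited 2 tables of raw read counts per gene on hg38. Trimmomatic, STAR and featureCounts are named in the submitters' processing notes, with no versions. Rows that name no gene stayed out of all sums: in the first table, 12.6% to 22.8% of reads had no feature, 0.338% to 47.5% were not aligned and 11.9% to 23.7% were not unique. The first table's 12 libraries appear again in the second, and these 12 repeated columns were not used. Groups came from the sample labels.

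Genes passing filterByExpr (minimum count 10, total 15) were tested per comparison with edgeR 4.0.16 (TMM scaling, quasi-likelihood F test, R 4.3.3) and adjusted over all genes by Benjamini-Hochberg, at 0.05. Levels (CPM) are counts scaled to library totals with TMM factors over a set, as mean ± SD. There were 17 comparisons: 10 of a drug with its line's controls, 4 between lines, 2 between drugs and 1 among untreated lines. Trametinib and palbociclib comparisons of 1 line in set 2 share controls. Alternatives were DESeq2 1.42.0, its size factors, no filter, all groups in one fit, a replicate block, robust dispersion and leaving out each library. The scripts were tested on simulated data. Members and lists were chosen with earlier results of these data known. Named genes were up to 4 called members per branch with the largest change, and the 4 regulators; between lines or drugs, up to 3 per direction; others were named after their values were seen.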

Additional observations from a re-analysis of the deposited data

Results flagged for a closer look

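The response to a drug differed between lines for several members, by a test of the difference itself (edgeR's quasi-likelihood test, adjusted over all genes). For trametinib 12 members differed between SW620 and SW48 of set 2, 2 higher in SW620 and 10 lower, against 15.3% and 12.9% of all genes. On the log2 scale, SW620 minus SW48, SREBF1 differed by 0.89, SCD by 0.59 (not called with all groups in one fit, adjusted p 0.073), HSD17B7 by −1.58, MVK by −1.20 and FADS1 by −1.18. For palbociclib 13 of 33 members differed, 5 higher in SW620 and 8 lower, against 14.6% and 11.2% of all genes, so the higher side was near the share of all genes. FADS2 was at 1.08, SCD at 0.61, ACLY at 0.53, FADS1 at −2.15, INSIG1 at −0.90 and MVK at −0.83. Untreated SW48 holds FADS1 at 1.575 CPM and SW620 at 244 CPM, and the part of that level in the difference was not tested.

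For afatinib 14 members differed between the breast lines, 13 lower in BT-474 and 1 higher, against 13.6% and 10.2% of all genes. BT-474 minus BT-20 was 0.68 for TM7SF2, −1.62 for SCD, −1.09 for INSIG1 and −1.07 for EBP.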

How the results depend on the processing

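With all groups of a set in one fit, the number of members called moved by over 1.5 times in these comparisons: 5 with trametinib in SW620 of set 2 (0 when fitted alone), 2 in NCI-N87 and 1 in MKN-45, all lower (0 each), 8 for palbociclib between SW620 and SW48 (13), 1 for NCI-N87 minus MKN-45 (0) and 7 for trametinib minus palbociclib in SW48 (14). For SW620 with trametinib in set 2, 2 members were called with no filter and 2 by DESeq2. The cause of these moves was not tested.

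Leaving out 1 library at a time gave 12 to 14 members called for SW48 with trametinib in set 1, 21 to 24 in set 2, 19 to 22 for SW48 with palbociclib, 18 to 20 for SW620 with palbociclib, 17 to 22 for BT-474, 0 to 8 for SW620 with trametinib in set 2 (8 without trametinib 1), 0 to 2 for NCI-N87 (2 without control 1) and 0 to 1 for NCI-N87 minus MKN-45. Some regulator values, none of them called, changed sign in these fits; SCAP for SW620 in set 1 moved from −0.75 to 0.146 without control 3, and the others lay nearer to 0. SREBF2 ranged from −0.022 to 0.174 for SW48 with trametinib in set 1, −0.065 to 0.052 for SW620 with trametinib in set 2, −0.084 to 0.028 for MKN-45 and −0.077 to 0.007 for BT-20. SCAP ranged from −1.06 to 0.146 and −0.101 to 0.104 for SW620 with trametinib in sets 1 and 2, and −0.087 to 0.005 for NCI-N87. SREBF1 ranged from −0.227 to 0.002 for SW620 in set 1, and INSIG1 from −0.07 to 0.076 for NCI-N87 and −0.081 to 0.075 for MKN-45.

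Samples share replicate numbers, but same-numbered samples did not deviate together in every pair. With the replicate number as a block, 18 members were called for SW620 with palbociclib (22 without) and 17 for BT-474 (20 without). ACAT2, IDI1 and LSS had few reads, which limits their precision; LSS was at 0.104 to 0.868 CPM in the untreated lines of set 2.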
